A study of Mus musculus with 27 samples.

Results

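The vascular miRNAs miR-126, miR-143 and miR-145a were followed over 27 small-RNA libraries of mouse brain. All mature miRNAs named miR-126-, miR-143- or miR-145a- were taken, which gave 6 of the 844 miRNAs of the series: miR-126-3p, miR-126-5p, miR-143-3p, miR-143-5p, miR-145a-5p and miR-145a-3p. The suprachiasmatic nucleus (SCN), the hypothalamic nucleus that holds the circadian clock of the brain, was profiled together with hypothalamus and cortex, each by 2 libraries. The other libraries were 2 each of the AVP, VIP and CCK neuron subtypes of the SCN, 2 each of SCN labelled LP and CTRL at circadian time (CT) 18 h, and an SCN time course with 1 library at each 4 h step between zeitgeber time (ZT) 2 and ZT 42. Every library came from C57BL/6 mice, and no allele, age or sex is given in the labels. The series names its CT18 samples as a test of light response, and the labels do not spell out LP or say how the neurons were collected.

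miR-126 is the best known miRNA of endothelial cells, the lining of blood vessels. It is made from an intron of Egfl7, an endothelial gene, and in mice it supports vessel integrity and the response to vascular growth factors. miR-143 and miR-145 are made together from 1 locus and are known from smooth muscle cells and pericytes, the mural cells around vessels, where they favour the contractile state. Each hairpin gives a 5p and a 3p strand, and the strand that is loaded into Argonaute usually outlasts its partner.

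The sequences below show the strand that, of the 6, stood lowest in the CT18 CTRL libraries relative to the time course. RefSeq (GRCm38.p6) places the miR-126a hairpin on the plus strand at chr2:26591357-26591429, and its mature 3p strand at chr2:26591402-26591423. The files' miR-126-3p is RefSeq's miR-126a-3p. In GENCODE M21 the hairpin lies inside Egfl7 (chr2:26580014-26593120), within an intron of 8 of its 19 transcripts, in an exon of 1 and outside the span of 10. Capitals mark the mature 3p strand in the hairpin and the seed, bases 2 to 8, in the mature miRNAs; miR-24-3p and miR-22-3p are shown because only these 2 miRNAs stood lower than miR-126-3p in the CT18 CTRL libraries relative to the time course.
miR-126a hairpin: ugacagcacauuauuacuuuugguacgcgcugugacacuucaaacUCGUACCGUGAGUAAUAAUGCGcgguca
miR-126a-3p: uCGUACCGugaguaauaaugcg
miR-24-3p: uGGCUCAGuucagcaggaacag
miR-22-3p: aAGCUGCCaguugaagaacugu
The 3 mature miRNAs have different seeds. Of the 1679 mature mouse miRNAs in the RefSeq table, 0 others carry the seed of miR-126a-3p.

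Levels are given in CPM, the deposited value divided by 10, since each library was scaled by the authors to a total of 10000000. The depth behind it, estimated from the step between the lowest values, was about 1946188 to 3583587 reads in the 3 regions, 2600780 to 5125577 in the time course, 1765926 to 2939015 at CT18 and 469335 to 2808989 in the neurons. A count of 0 reads then allows up to 3 reads, or 0.585 to 6.39 CPM depending on the library, and such floors cover counting error only. The labels do not say whether libraries of a group came from separate animals, so the spread between them may be technical.

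**Figure D1:**
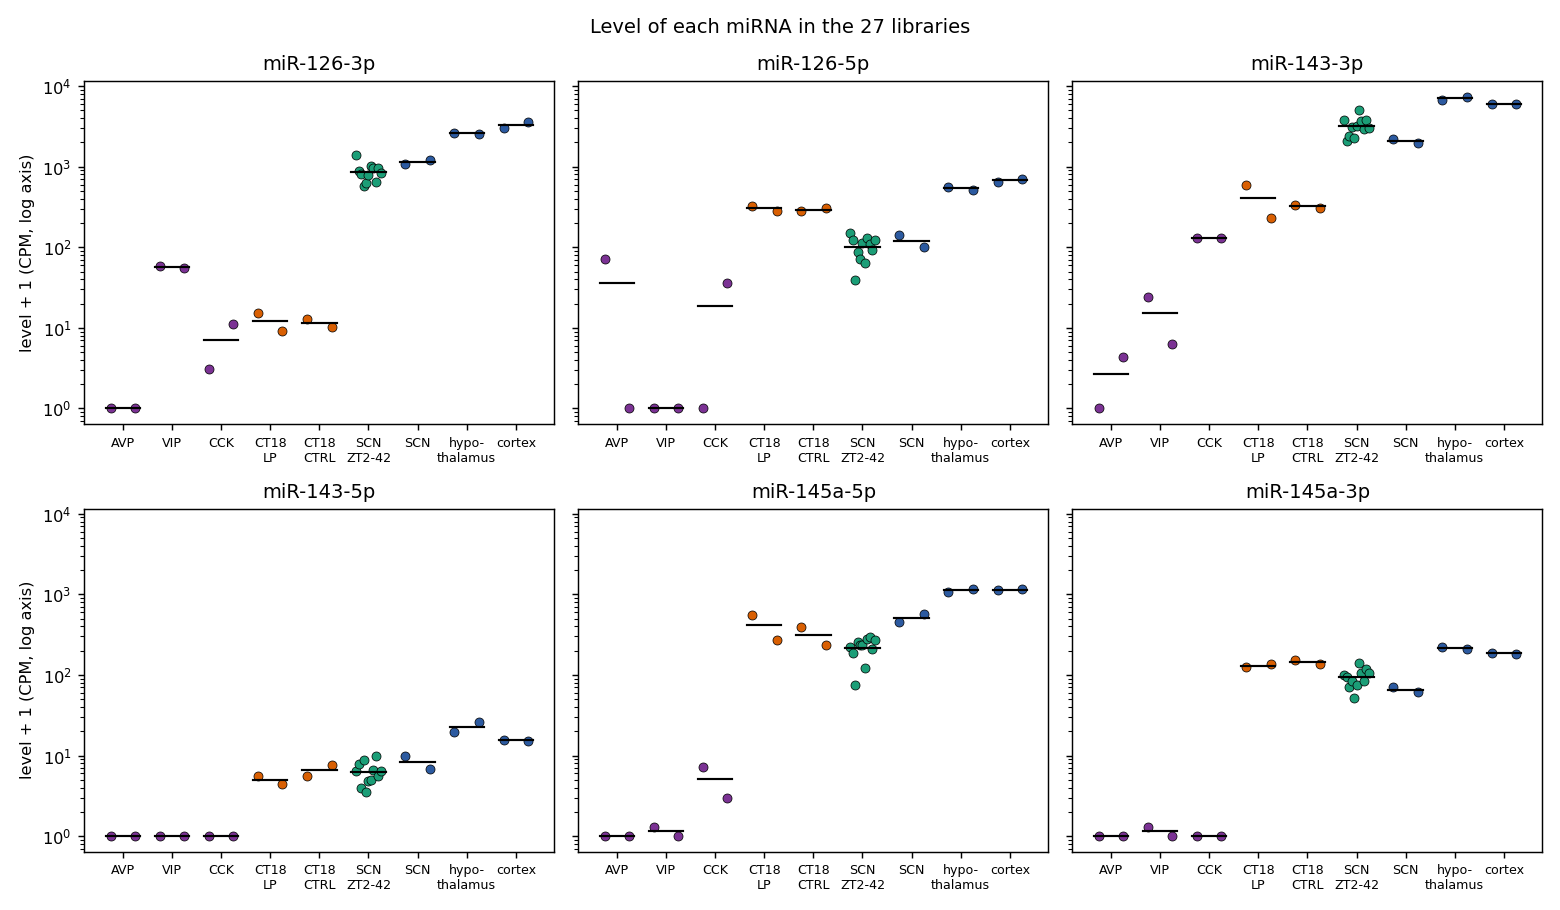
Level of each miRNA in the 27 libraries, as CPM + 1 on a log axis, 1 panel a miRNA. Points are libraries, bars are group means, and colours mark neurons (purple), CT18 SCN (orange), the SCN time course (green) and the 3 brain regions (blue). miR-126-3p sits at 8.1 to 14.1 CPM in the 4 CT18 libraries and at 571 to 1396 CPM in the time course, while miR-126-5p is higher at CT18 than in every time-course library.

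The SCN held less of all 6 miRNAs than hypothalamus or cortex, by 2.20-fold to 4.48-fold against hypothalamus and by 1.97-fold to 5.60-fold against cortex. miR-126-5p differed most in both comparisons. In bulk tissue, fewer cells of a type and less RNA per cell cannot be told apart.

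miR-126-3p, the endothelial strand, stood at 1079 and 1224 CPM in the SCN, against 2605 and 2550 CPM in hypothalamus. Cortex held 3037 and 3541 CPM. The 3 regions did not overlap. Means were 1151 ± 103 CPM in the SCN, 2577 ± 39.5 in hypothalamus and 3289 ± 356 in cortex (SD, n = 2 each). In limma the log2 fold change was -1.17 (SE 0.12, adjusted p = 2.21e-05) for SCN minus hypothalamus and -1.51 (SE 0.12, adjusted p = 2.06e-06) for SCN minus cortex.

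miR-126-5p, the other strand of the same hairpin, stood at 141 and 99.3 CPM in the SCN. Hypothalamus held 565 and 511 CPM and cortex 645 and 700 CPM. The 2 SCN libraries were below all 4 of the others, with limma log2 fold changes of -2.18 (SE 0.17, adjusted p = 7.38e-06) against hypothalamus and -2.51 (SE 0.17, adjusted p = 1.06e-06) against cortex. The ratio of miR-126-5p to miR-126-3p was 0.131 and 0.0811 in the SCN, against 0.217 and 0.200 in hypothalamus. Cortex had ratios of 0.212 and 0.198. The 3p strand was therefore the larger in all 6 tissue libraries, and the SCN ratios lay below those of both other regions.

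miR-143-3p, the major strand of miR-143, was the most abundant of the 6 in tissue. Its gene and that of miR-145a lie on the same strand of chromosome 18 with 1301 bases between the hairpins (GENCODE M21). miR-143-3p stood at 2186 and 1962 CPM in the SCN, against 6627 and 7389 CPM in hypothalamus. Cortex held 6011 and 5969 CPM. By level it took place 53 and 51 among the miRNAs of the SCN libraries, 31 and 28 in hypothalamus, and 32 and 34 in cortex. The limma log2 fold change was -1.76 (SE 0.10, adjusted p = 2.23e-06) against hypothalamus and -1.53 (SE 0.10, adjusted p = 7.31e-07) against cortex.

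miR-143-5p, its minor strand, stood at 8.9 and 5.8 CPM in the SCN, against 18.8 and 24.7 CPM in hypothalamus. Cortex held 14.6 and 14.3 CPM. The groups did not overlap, and the log2 fold change was -1.57 (SE 0.36, limma adjusted p = 0.0038) against hypothalamus. Against cortex it was -0.998 (SE 0.36, limma adjusted p = 0.028), a call that did not hold in 5 of 12 alternatives, among them without SCN replicate 2 (adjusted p = 0.13), without hypothalamus replicate 2 (0.055) and without cortex replicate 1 (0.080) or 2 (0.068).

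miR-145a-5p, the main strand of miR-145a, stood at 458 and 565 CPM in the SCN, against 1083 and 1162 CPM in hypothalamus. Cortex held 1132 and 1159 CPM, a range that lies within that of hypothalamus. miR-145a-3p stood at 69.9 and 59.7 CPM in the SCN, against 220 and 207 CPM in hypothalamus. Cortex held 188 and 180 CPM. The SCN libraries were the lowest for both strands, with limma log2 fold changes between -1.72 and -1.14 over both comparisons and adjusted p-values of 5.26e-05 or less.

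All 6 miRNAs passed the adjusted p of 0.05 and were lower in the SCN in both comparisons. However, miR-143-5p met the filter on low levels only through hypothalamus and cortex, so a lower call for the SCN was favoured in advance. Of the 378 miRNAs tested, 70.9% passed for SCN minus hypothalamus and 42.9% were lower. For SCN minus cortex 80.2% passed and 38.9% were lower. Groups did not overlap for 87.3% and 90.2% of the miRNAs, so a lack of overlap was common. The median log2 fold change was -1.65 for the 6 and -0.29 for all miRNAs tested against hypothalamus, and -1.51 for the 6 and 0.06 for all against cortex. The deposited scaling itself shifted the median by -0.26 and 0.16 relative to a median-ratio scaling, which is less than any of the 12 changes.

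Hypothalamus and cortex lay closer to each other than either did to the SCN. Between them, 58.2% of the miRNAs tested passed and 16.4% were lower in hypothalamus, and of the 6 only miR-126-3p passed, while groups did not overlap for 5 of the 6 and for 83.9% of all (log2 fold change -0.35, SE 0.12, limma adjusted p = 0.027). That call was lost without hypothalamus replicate 1 or 2 (adjusted p = 0.089 and 0.12), without cortex replicate 2 (0.20) and with no filter on low levels (0.058). The 95% intervals of the other 5 reached from -0.72 to 0.07 for miR-126-5p, from -0.002 to 0.45 for miR-143-3p, from -0.24 to 1.39 for miR-143-5p, from -0.32 to 0.26 for miR-145a-5p and from -0.13 to 0.55 for miR-145a-3p. Here the deposited scaling shifted the median by 0.42, which is larger than the change of miR-126-3p. Under a median-ratio scaling both miR-143-3p and miR-145a-3p turned to below 0, at -0.20 and -0.21.

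**Figure D2:**
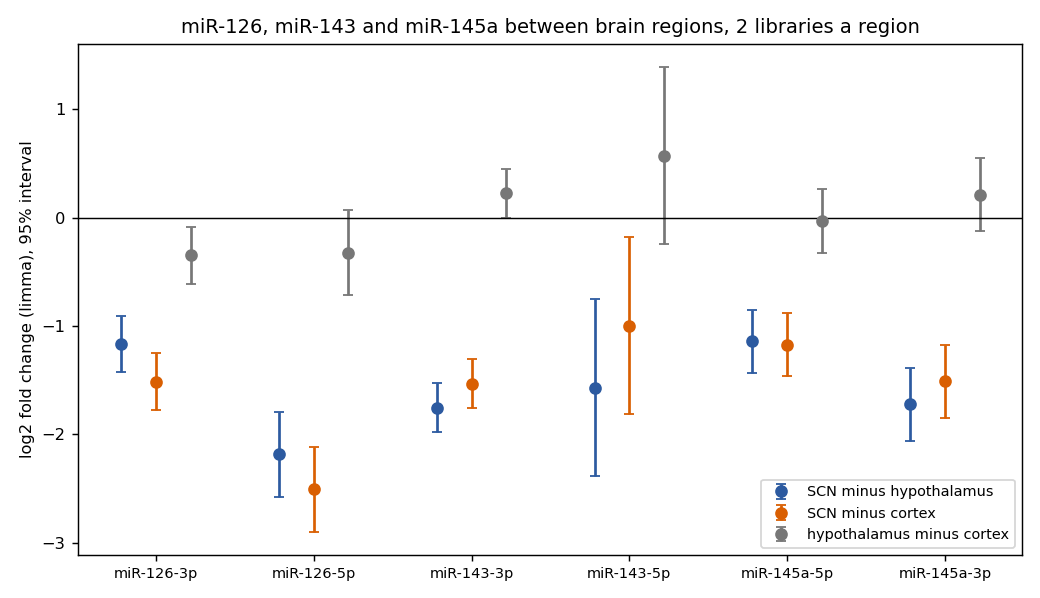
Log2 fold changes with 95% intervals from limma for each of the 6 miRNAs (horizontal axis), for SCN minus hypothalamus (blue), SCN minus cortex (orange) and hypothalamus minus cortex (grey), with 2 libraries a region. All 12 intervals that involve the SCN lie below 0, and 5 of the 6 grey intervals cross it.

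Other miRNAs known from vessel walls were set beside them. Of 10 other endothelial miRNAs tested, 3 were higher, 5 were lower and 2 did not pass for SCN minus hypothalamus, with a median log2 fold change of -0.40. For SCN minus cortex 1 was higher, 6 were lower and 3 did not pass, with a median of -1.01. Over all 378 miRNAs tested, 42.9% were lower against hypothalamus and 38.9% against cortex. The 5 of 10 lower against hypothalamus lay near that share. miR-24-3p, made in part with miR-23a-3p and miR-27a-3p, averaged 4305 ± 29.8 CPM in the SCN and 8884 ± 110 CPM in hypothalamus (SD, n = 2 each). miR-222-3p, which restrains endothelial growth together with miR-221-3p, went the other way against both regions. It averaged 1888 ± 185 CPM in the SCN, 669 ± 56.9 CPM in hypothalamus and 1228 ± 72.3 CPM in cortex (SD, n = 2 each). miR-221-3p, at 790 ± 155 CPM in the SCN, was above hypothalamus (590 ± 67.0 CPM) but below cortex (1832 ± 72.3 CPM; SD, n = 2 each).

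Of 10 other mural, mesenchymal and fibroblast miRNAs found, 6 were tested. All 6 were lower in the SCN than in hypothalamus (median -1.35), and 4 were lower than in cortex (median -1.10). Over all miRNAs tested these shares were 42.9% and 38.9%. miR-322-5p, at a mean of 3.95 CPM in the SCN, met the 10 CPM filter only through the other regions. miR-21a-5p, abundant in fibroblasts and smooth muscle, averaged 205 ± 21.6 CPM in the SCN and 1312 ± 141 CPM in hypothalamus (SD, n = 2 each). The list counts miR-199a-3p and miR-199b-3p as 2 entries, although their levels were equal in SCN and cortex libraries. They were the 2 that did not pass against cortex, at a log2 fold change of 0.01.

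Several other lists moved too, beside shares of 42.9% and 38.9% lower over all miRNAs tested against hypothalamus and cortex. Striated muscle miRNAs summed to 52.2 to 73.2 CPM in the SCN, against 344 to 356 CPM in hypothalamus and 410 to 484 CPM in cortex, and the 3 of 6 tested were lower in the SCN in both comparisons. Neuronal miRNAs summed to 33900 to 39368 CPM in the SCN, against 49999 to 52530 CPM in hypothalamus and 152330 to 159287 CPM in cortex, with 7 and 8 of 8 lower. Erythrocyte miRNAs, a sign of blood left in the tissue, summed to 493 to 589 CPM in the SCN, against 554 to 896 CPM in hypothalamus and 518 to 645 CPM in cortex, which overlap. In them 3 of 4 tested were lower in the SCN, with a median log2 fold change over the 4 of -2.73 against hypothalamus and -2.85 against cortex. The 1 that was higher, miR-486-5p, made up most of the SCN sum, at 499 ± 63.8 CPM in the SCN and 333 ± 58.1 CPM in hypothalamus (SD, n = 2 each). Without it the list summed to 38.8 to 45.3 CPM in the SCN, against 262 to 523 CPM in hypothalamus and 386 to 444 CPM in cortex. miR-451a averaged 29.7 ± 5.8 CPM in the SCN and 245 ± 136 CPM in hypothalamus (SD, n = 2 each). Beside miR-451a, that SCN sum leaves too little for all 3 lower miRNAs to meet the 10 CPM filter within the SCN. For at least part of them a lower call was thus favoured in advance.

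Choroid plexus and ciliated-cell miRNAs mostly went the other way. For SCN minus hypothalamus 3 of 4 tested were higher and 1 lower (median log2 fold change 0.85), and for SCN minus cortex 4 of 4 were higher (median 2.80). Without miR-204-5p, the most abundant, the list summed to 980 to 1578 CPM in the SCN. That was below the 1752 to 2411 CPM of hypothalamus and above the 186 to 235 CPM of cortex. Over all 378 miRNAs tested, 70.9% passed against hypothalamus, with 42.9% lower, and 80.2% passed against cortex, with 38.9% lower. Only the rest of those that passed were higher. Oligodendrocyte miRNAs were lower in the SCN for 4 of 4 against hypothalamus (median -1.60). Against cortex 1 was higher, 2 were lower and 1 did not pass (median -0.49). Of 3 microglia and leukocyte miRNAs tested, 1 was higher and 2 were lower in both comparisons, with medians of -0.64 and -1.05. The part of these cells in the results was not tested.

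The CT18 libraries stood apart from every other SCN tissue library in both strands of miR-126 and in miR-143-3p. miR-126-3p was 8.1 to 14.1 CPM there, against 571 to 1396 CPM in the time course, while miR-126-5p was higher at CT18. miR-143-3p was lower at CT18, and both strands of miR-145a overlapped the other SCN tissue libraries. A lack of overlap was common between these parts. For CTRL against the time course 48.6% of 354 miRNAs did not overlap, and for LP 45.1% of 355. CTRL did not overlap the SCN libraries of the region comparison for 81.1% of 370. CT18 and the time course are separate parts of the series with no shared samples, so these levels are described without a test, and part and condition cannot be told apart.

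miR-126-3p stood at 14.1 and 8.1 CPM in the LP libraries and at 11.8 and 9.3 CPM in the CTRL libraries, on an estimated 25, 24, 21 and 18 reads. The time course, at the same nucleus, ranged over 571 to 1396 CPM with a median of 829. At ZT 18 and ZT 42, the times that match 18 h by number, it held 634 and 829 CPM. CTRL was thus 81.9-fold lower than the time course and 109-fold lower than the SCN libraries of the region comparison. LP was 77.8-fold lower than the time course. Among the 354 miRNAs compared, the median log2 difference of CTRL from the time course was 0.31, and 44 (12.4%) were more than 4-fold lower, 24 of them more than 16-fold. miR-126-3p was the third lowest, behind miR-24-3p (44.7 CPM in CTRL and 9231 CPM in the time course) and miR-22-3p (12.3 CPM in CTRL and 1817 CPM in the time course), whose sequences stand above.

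miR-126-5p stood at 323 and 283 CPM in LP and at 282 and 303 CPM in CTRL. The time course ranged over 38.4 to 149 CPM, with a median of 109. All 4 CT18 libraries thus lay above all 11 of the time course, and CTRL was 2.94-fold higher. The strand ratio turned round: miR-126-5p over miR-126-3p was 22.9 and 34.96 in LP and 23.9 and 32.5 in CTRL, against 0.0471 to 0.169 in the time course. Of 89 hairpins with both strands measured, miR-126 had the largest change of this ratio, at 7.91 on the log2 scale, where the median size of change was 0.95. Changes above 16-fold were seen in 7 of the 89, miR-376b (-7.07) and miR-411 (-5.39) among them, and the larger strand switched in 8.

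**Figure D3:**
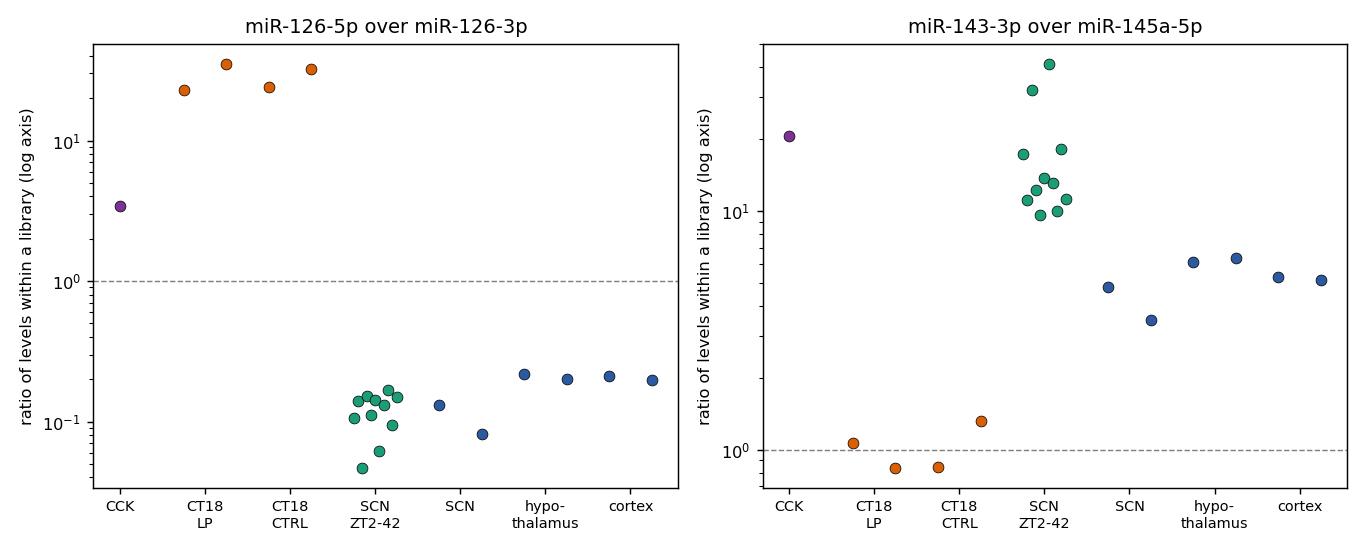
Ratio of miR-126-5p to miR-126-3p (left) and of miR-143-3p to miR-145a-5p (right) within each library, on log axes, for groups where both had at least 3 reads; the dashed line marks equal levels. The 4 CT18 libraries lie above 22 on the left, where all tissue and time-course libraries lie below 0.22, and near 1 on the right.

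miR-143-3p stood at 589 and 229 CPM in LP and at 335 and 310 CPM in CTRL. The time course ranged over 2063 to 4991 CPM with a median of 3135. CTRL was 9.97-fold lower than the time course, at place 33 of 354 from the lowest, and 6.44-fold lower than the SCN libraries of the region comparison. miR-143-5p, at 4.5 and 3.4 CPM in LP and 4.5 and 6.7 CPM in CTRL, overlapped the 2.5 to 9.0 CPM of the time course. The 3p strand of miR-143 was thus 67.5 to 131 times the 5p strand in LP and 46.2 to 74.3 times in CTRL, against 303 to 1248 times in the time course.

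miR-145a-5p stood at 554 and 273 CPM in LP and at 396 and 236 CPM in CTRL. The time course ranged over 74.5 to 297 CPM, with a median of 231, which reaches into the range of both CT18 groups. miR-145a-3p stood at 123 and 136 CPM in LP and at 150 and 136 CPM in CTRL, against 50.3 to 141 CPM in the time course. miR-143-3p over miR-145a-5p, which come from neighbouring hairpins, was 1.06 and 0.840 in LP and 0.844 and 1.31 in CTRL, against 9.62 to 41.2 in the time course and 3.47 to 4.78 in the SCN of the region comparison.

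**Figure D4:**
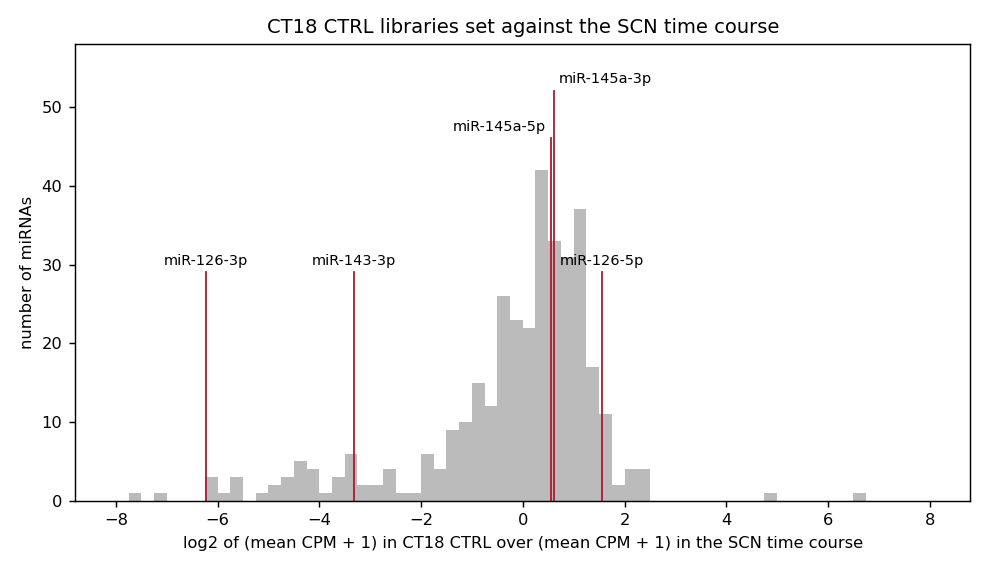
Histogram over 354 miRNAs of the log2 ratio of mean level (CPM + 1) in the 2 CT18 CTRL libraries to that in the 11 time-course libraries, with 5 of the 6 miRNAs marked by lines. miR-126-3p lies at -6.23 and miR-143-3p at -3.31, in the left tail, and miR-126-5p lies at 1.55.

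Cell markers moved between these parts in different ways. The 10 other endothelial miRNAs summed to 5681 to 5732 CPM in LP and 4916 to 5641 CPM in CTRL, against 11261 to 15554 CPM in the time course. miR-24-3p carried that gap, and without it the sum was 5587 to 5679 CPM in LP and 4879 to 5588 CPM in CTRL, inside the 2347 to 6812 CPM of the time course. Of the 10, 4 had a higher mean in CTRL than in the time course and 6 a lower one, with miR-221-3p at 687 CPM in CTRL and 307 CPM in the time course, and miR-31-5p at 1.6 CPM in CTRL and 67.9 CPM in the time course. The 10 other mural miRNAs summed to 171 to 200 CPM in LP and 150 to 168 CPM in CTRL, against 208 to 585 CPM in the time course. miR-21a-5p carried that gap, at 37.7 CPM in LP and 274 CPM in the time course. Without it the sum was 140 to 155 CPM in LP and 128 to 135 CPM in CTRL, against 33.9 to 128 CPM in the time course. miR-199a-3p and miR-199b-3p, equal in these libraries, averaged 34.5 CPM in CTRL and 11.1 CPM in the time course. Erythrocyte miRNAs summed to 685 to 854 CPM in LP and 662 to 757 CPM in CTRL, against 908 to 1404 CPM in the time course, most of it miR-486-5p. Without it they summed to 110 to 149 CPM in LP and 94.1 to 116 CPM in CTRL, against 39.3 to 80.5 CPM in the time course, and miR-451a, abundant in red cells, averaged 77.3 CPM in CTRL and 32.5 CPM in the time course. Neuronal miRNAs summed to 52963 to 71501 CPM in LP and 50315 to 61511 CPM in CTRL, against 35339 to 57848 CPM in the time course. The part of these cells in the results was not tested.

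None of the 5 miRNAs that could be tested passed between LP and CTRL. Of 317 miRNAs tested in limma, 0% passed the adjusted threshold, and 1 had an unadjusted p under 0.05. The limma adjusted p was 0.99 for all 5, and the 95% intervals of the log2 fold change were widest for miR-126-3p, at -1.20 to 1.26, and narrowest for miR-126-5p, at -0.46 to 0.56. Only for miR-145a-3p did the groups not overlap, as for 18.6% of the miRNAs tested. LP replicate 2 decided the values of miR-143-3p and miR-145a-5p. Without it, both passed, at log2 fold changes of 0.87 (limma adjusted p = 0.028) and 0.86 (limma adjusted p = 0.049), with LP then held by 1 library that is assumed to vary like the others. Without LP replicate 1 the same values were -0.49 and -0.16.

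The neurons held little of these miRNAs. Each neuron library listed only 215 to 312 miRNAs, against 582 to 634 in the region libraries, so a value of 0 was common there. miR-126-3p was at 0 in both AVP libraries, at 57.6 and 54.2 CPM in VIP, and at 2.1 and 10.2 CPM in CCK. The 2 VIP libraries rest on an estimated 162 and 151 reads, and the 2 CCK libraries on 1 and 5. miR-126-3p met the filter of 10 CPM in 2 libraries only with the help of VIP, so a lower call for AVP was favoured in advance. AVP was at least 26.9-fold lower than VIP, with 3 reads over the group as the bound, and this comparison passed in limma (adjusted p = 0.0086). It was passed by 32.8% of the 305 miRNAs tested, with 14.8% lower in AVP, and by 1 of the 3 vascular miRNAs that could be tested. AVP minus CCK was passed by 16.7% of the miRNAs and VIP minus CCK by 29.8%, and in both by 0 of these 3; for miR-126-3p the limma adjusted p was 0.056 and 0.12, and 88 and 120 of the 305 had an unadjusted p under 0.05.

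miR-126-5p was seen in single libraries only. It stood at 70.8 and 0 CPM in AVP, at 0 and 0 CPM in VIP, and at 0 and 34.9 CPM in CCK. In AVP replicate 1 an estimated 38 reads of the 5p strand thus stood beside 0 of the 3p strand, while both VIP libraries had the 3p strand alone. Limma gave adjusted p-values of 0.44, 1.0 and 0.54 for AVP minus VIP, AVP minus CCK and VIP minus CCK.

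miR-143-3p was at 0 and 3.3 CPM in AVP, at 23.1 and 5.3 CPM in VIP, and at 129.9 and 129.4 CPM in CCK. The 3 groups did not overlap, as for 64.6%, 58% and 62.6% of the miRNAs in the 3 comparisons, yet limma adjusted p-values were 0.20 for AVP minus VIP, 0.080 for AVP minus CCK and 0.31 for VIP minus CCK. miR-143-3p met the 10 CPM filter only through CCK and VIP, so a lower value for AVP was favoured in advance. The log2 fold change was -7.80 for AVP minus CCK and -4.26 for AVP minus VIP. Without AVP replicate 2, which holds 3 reads, these became -10.3 and -6.81, with AVP then held by 1 library at 0 reads. miR-145a-5p was at 0 in AVP, on 1 read in VIP and on 3 and 1 reads in CCK. miR-145a-3p had 1 library above 0, VIP replicate 1 at 0.3 CPM, and miR-143-5p was at 0 in all 6.

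Set beside SCN tissue, with no test, miR-126-3p was at least 554-fold lower in AVP, 20.6-fold lower in VIP and 187-fold lower in CCK than in the SCN libraries of the region comparison. miR-143-3p was 1257-fold lower in AVP, on 0 and 3 reads, 146-fold lower in VIP and 16.0-fold lower in CCK. miR-145a-5p was at least 246-fold lower in AVP, 3408-fold in VIP and 123-fold in CCK, on 0 to 3 reads a library. Falls of this size were not counted over all miRNAs, so they cannot be read as particular to these. The order of the neuron types differed between miR-126-3p, which was highest in VIP, and miR-143-3p, which was highest in CCK. The 10 other endothelial miRNAs summed to 3940 to 4274 CPM in AVP, 2253 to 3446 CPM in VIP and 3417 to 4535 CPM in CCK, against 9229 to 9405 CPM in the SCN. Oligodendrocyte miRNAs summed to 45.1 to 134 CPM in AVP, 756 to 1249 CPM in VIP and 631 to 742 CPM in CCK, against 1004 to 1551 CPM in the SCN. miR-219-5p and miR-219-2-3p were at 0 in all 3 neuron types, while miR-338-5p, of the same list, stood at 584 ± 98.9 CPM in VIP and 219 ± 62.2 CPM in the SCN (SD, n = 2 each). Neuronal miRNAs summed to 3984 to 4658 CPM in AVP, where miR-137-3p and miR-138-5p were at 0, to 15486 to 21571 CPM in VIP and to 12162 to 13861 CPM in CCK, against 33900 to 39368 CPM in SCN tissue. Their sum was thus lower in the neuron libraries than in SCN tissue. Of the 8, however, 1 had a higher mean in AVP than in the SCN, 3 in VIP and 3 in CCK, and the rest were lower.

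No 24 h rhythm was called in the SCN time course. With 1 library a time, 5 of the 6 miRNAs could be tested, and a cosine and sine fit in limma called 0 of them, as it called 0% of 357 miRNAs, with 6 at an unadjusted p under 0.05. miR-126-3p had the lowest p of the 5 (unadjusted p = 0.096 and adjusted p = 0.95 in limma), with an amplitude of 0.32 on the log2 scale and a fitted peak at ZT 2.41. It stood at 1396, 872, 816, 571, 634, 781, 1015, 971, 649, 970 and 829 CPM in order of time, high at ZT 2 and ZT 26 and lowest at ZT 14. The next cycle held 970 CPM at the hour that matches ZT 14.

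miR-143-3p stood at 3815, 2063, 2396, 3135, 2247, 3168, 4991, 3710, 2956, 3804 and 3024 CPM, with its highest value at ZT 26 and its lowest at ZT 6. miR-145a-5p stood at 221, 185, 74.5, 257, 234, 231, 121, 282, 297, 208 and 269 CPM, low at ZT 10 and ZT 26. miR-126-5p, over 38.4 to 149 CPM, was lowest at those same times, at 38.4 and 62.8 CPM. Between libraries 24 h apart, the median difference over 5 pairs was 0.39, 0.81, 0.39, 0.49 and 0.61 on the log2 scale for miR-126-3p, miR-126-5p, miR-143-3p, miR-145a-3p and miR-145a-5p, against 0.36, 0.48, 0.39, 0.41 and 0.36 over the 50 other pairs.

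**Figure D5:**
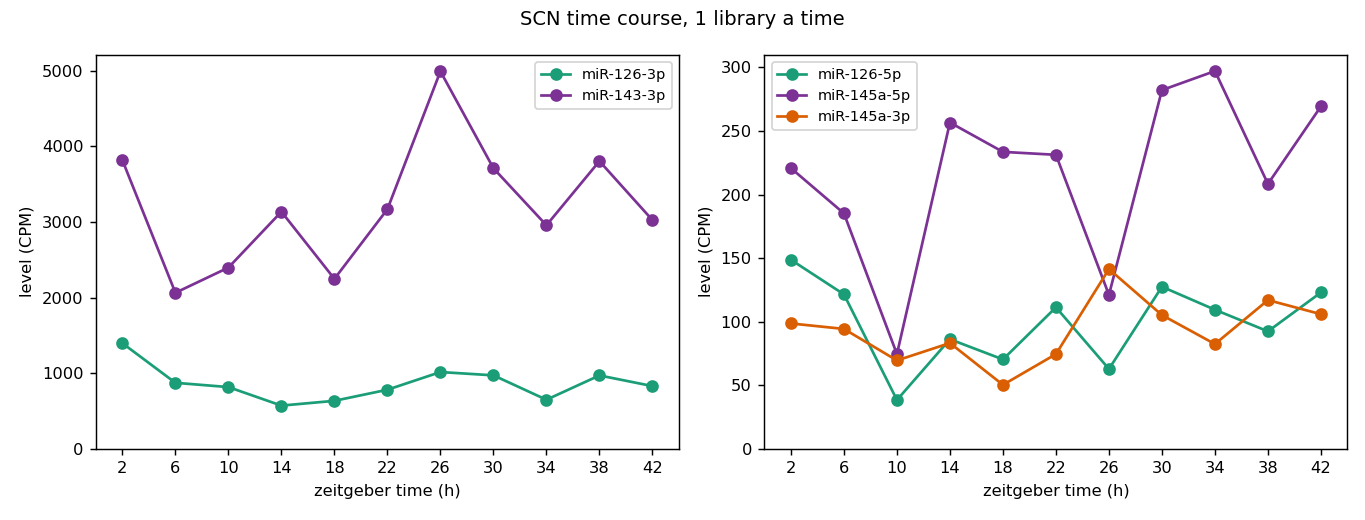
Levels in CPM over zeitgeber time in hours, 1 library a time, for miR-126-3p and miR-143-3p (left) and for miR-126-5p, miR-145a-5p and miR-145a-3p (right). miR-126-5p and miR-145a-5p are both low at ZT 10 and ZT 26, and miR-143-3p is highest at ZT 26.

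Of 10 pairs among 5 of the miRNAs over the 11 time-course libraries, 2 passed by Pearson's r and 0 by Spearman's rho after adjustment over the 10. miR-143-3p and miR-145a-3p had r = 0.74 (permutation p = 0.0089, adjusted 0.045) and rho = 0.68 (permutation p = 0.026, adjusted 0.13), with r = 0.87 without ZT 6 and ZT 26. miR-126-5p and miR-145a-5p had r = 0.81 (permutation p = 0.0073, adjusted 0.045) and rho = 0.45 (permutation p = 0.16, adjusted 0.40), but r was 0.02 without ZT 10 and ZT 26, so that relation rests on these libraries. The strands of miR-126 had r = 0.30 (permutation p = 0.37, adjusted 0.64) and rho = 0.42 (permutation p = 0.20, adjusted 0.40), and those of miR-145a had r = -0.02 (permutation p = 0.95, adjusted 0.95) and rho = -0.08 (permutation p = 0.82, adjusted 0.82).

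Ordered by mean level, miR-126-3p was highest in cortex and then hypothalamus, the SCN, the time course, VIP, LP, CTRL, CCK and AVP. The SCN and the time course overlapped, as did LP, CTRL and CCK. miR-126-5p differed in order, with LP and CTRL above the SCN and the time course. miR-143-3p and miR-145a-3p were highest in hypothalamus, and miR-145a-5p was highest in cortex with hypothalamus overlapping it.

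The miRNAs whose pattern was most like each were found from the root mean square (RMS) difference of centred log2(CPM + 1) over all 27 libraries, among 332 with a mean of at least 10 CPM, with miR-126, miR-143 and miR-145a strands set aside. For miR-126-3p these were miR-1a-3p (RMS 1.57), miR-708-5p, miR-31-5p, miR-195a-5p and miR-218-5p (2.04), while miR-143-3p was nearer than the last of these, at 1.89, its own 5p strand was at 3.35 and the median candidate at 3.50. miR-195a-5p, for example, averaged 0.4 CPM in LP and 0.5 CPM in CTRL, against 97.4 CPM in the time course. It was the only one of the 5 that was kept over the 21 tissue libraries alone, where miR-872-5p, miR-22-3p, miR-29c-3p and miR-16-5p joined it. There miR-143-3p lay at 1.38, beyond all 5 (0.47 to 0.67). miR-195a-5p and miR-16-5p share their seed with each other and not with miR-126a-3p, as their sequences show, with the seed in capitals.
miR-195a-5p: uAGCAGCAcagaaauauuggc
miR-16-5p: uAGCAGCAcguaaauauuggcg
Their mature sequences lie on chromosome 11 for miR-195a-5p and, in 2 copies, on chromosomes 3 and 14 for miR-16-5p (RefSeq, GRCm38.p6).

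For miR-126-5p the nearest were miR-9-5p (1.26), miR-93-5p, miR-27a-3p, miR-23a-3p and miR-152-3p (1.51). For miR-143-3p they were miR-873a-3p (1.74), miR-146a-5p, miR-195a-5p, miR-101b-3p and miR-150-5p (1.87), while miR-145a-5p, from the neighbouring hairpin, was nearer than all 5 at 1.63. miR-145a-3p lay at 1.81 and miR-126-3p at 1.89. For miR-145a-5p they were miR-219-2-3p (1.03), miR-490-3p, miR-152-3p, miR-93-5p and miR-150-5p (1.33), and miR-145a-3p lay nearer than all 5. Over the 21 tissue libraries 0 of 5, 0 of 5 and 1 of 5 of these names were kept. There miR-145a-5p lay at 1.57 from miR-143-3p, beyond its 5 nearest (0.24 to 0.56), with the median candidate at 1.69. miR-145a-3p lay at 0.87 from miR-145a-5p, also beyond its 5 nearest (0.27 to 0.54). The libraries share depth and scaling within each part, so these likenesses are descriptions only.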

How the data were processed

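Small RNA from 27 samples was sequenced by the submitters from total RNA taken with Trizol and Illumina libraries, per the labels' protocols. Bowtie and GRCm38 (mm10) are named, per the submitters' processing notes, and no other step is given in the sources used here. Each deposited value is a normalized signal for 1 mature miRNA. The authors scaled it to library totals of 10004170 to 10021510 and cut it to a whole number, as the values themselves show. CPM is that value divided by 10, and a miRNA that is not listed was taken as 0. Values were steps rounded down, from which reads were estimated (1 read to within 0.1%); these estimates served depth and floors (3 reads, counting error only), not a count test, although one had been planned.

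Samples were grouped by labels alone, and 0 columns lacked a group. limma-trend (limma 3.58.1, R 4.3.3) was run on log2(value + 1), in 1 model each for the regions, neurons, CT18 and the time course, over all miRNAs that reached 100 (10 CPM) in 2 or more libraries of the model (3 in the time course). Tests were two-sided, with Benjamini-Hochberg adjustment and a threshold of 0.05. Rhythm used cosine and sine terms of 24 h on 8 residual degrees of freedom. Parts of the series were not tested against each other. Correlations used 100000 permutations (scipy 1.17.1), and figures matplotlib 3.10.9. The code was tested on simulated data. The miRNAs, the lists and the naming rule (5 nearest patterns per miRNA) were chosen with earlier results of these data known; the miRNAs lowest at CT18 and the hairpins named by ratio were chosen after their values were seen. RefSeq gave a mature sequence for 1 of the 6. Alternatives were quantile normalization, median-ratio scaling, a pseudocount of 10, no filter, a replicate block, only the groups compared, a linear term for time and leaving out each library.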

Additional observations from a re-analysis of the deposited data

How the results depend on the processing

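All 6 miRNAs were lower in the SCN than in hypothalamus in every alternative run. For SCN minus cortex the count was 5 to 6 with 1 library left out. Between hypothalamus and cortex the count called, 1 as reported, was 2 with quantile normalization, 3 with median-ratio scaling, 0 with no filter, 3 with only the 2 regions and 0 to 3 with 1 library left out. There, with quantile normalization, the log2 fold changes of miR-143-5p and miR-145a-3p turned to -0.090 and -0.10, with median-ratio scaling miR-143-3p and miR-145a-3p turned to -0.20 and -0.21, and miR-145a-5p ranged over -0.081 to 0.021 with 1 library left out, above 0 without hypothalamus replicate 1.

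In neurons the count called for AVP minus VIP was 1 to 2 with 1 library left out. For AVP minus CCK it was 1 with a pseudocount of 10 and 0 to 1 with 1 library left out. There miR-126-5p ranged over -3.72 (without CCK replicate 1) to 5.24, in the 4 fits where it still met the filter. For VIP minus CCK the count called was 1 with quantile normalization. For LP minus CTRL it was 0 to 2 with 1 library left out. There the log2 fold changes of miR-126-3p and miR-126-5p turned to -0.13 and -0.079 with quantile normalization, and to -0.051 and -0.030 with median-ratio scaling. With 1 library left out, miR-126-3p ranged over -0.14 to 0.43 in the 2 fits where it still met the filter. In 4 fits each, miR-126-5p ranged over -0.043 to 0.15, miR-143-3p over -0.49 to 0.87 and miR-145a-5p over -0.16 to 0.86. The values below 0 came without LP replicate 1, CTRL replicate 1 or CTRL replicate 2. The causes were not tested. Over all alternatives for single miRNAs, 397 of 437 kept direction and side of the threshold.

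Replicate numbers did not pair the libraries: their deviations correlated across miRNAs at -0.06 to 0.11 between regions, -0.09 to 0.12 between neurons and 0.25 at CT18. A replicate block left the counts called at 6, 6 and 1 for the regions, 1, 0 and 0 for the neurons and 0 for LP minus CTRL, and changed no call. The test planned for reads (edgeR) was not run, since the deposited values are scaled and cut to whole numbers, and DESeq2 was not run either. Depth limits the neurons most, where 3 reads equal up to 6.39 CPM.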
